A study of Mus musculus with 4 samples.

Results

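Mitochondrial ribosomal protein genes are the nuclear genes that encode the protein subunits of the ribosome inside mitochondria. They were taken as all genes whose platform symbol starts with Mrpl or Mrps followed by a digit, each measured by the probe set that names that gene alone and has the highest mean over the 4 arrays. The rule gave 76 genes, 47 with large-subunit and 29 with small-subunit symbols, of 18193 genes that at least 1 probe set names alone. The RNA came from mouse splenic naive T cells of KO or wild-type (WT) mice, cultured for 3 days with stimulation that induces regulatory T cells (Treg cells, CD4 T cells that restrain immune responses). There were 2 KO arrays and 2 WT arrays, on a single-colour Affymetrix platform, and the purpose was to find genes that differ between the genotypes. The labels do not name the gene that was knocked out, the strain, age or sex, or the composition of the culture. They speak of mice in the plural for each array without a number, so an array may stand for 1 animal or for several, and p-values measure only the spread between these arrays, which may be technical.

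The mitochondrial ribosome translates the few messenger RNAs of the mitochondrial genome, all of which encode membrane subunits of the respiratory chain and ATP synthase. Its RNAs are transcribed inside the organelle, but its proteins are made on cytosolic ribosomes from nuclear genes and imported, so supply from both genomes has to meet. Activated T cells expand their mitochondria, and mitochondrial translation is known to be needed for their proliferation and effector functions. Most subunits with a bacterial counterpart keep the bacterial number in their names, and others exist only in mitochondrial ribosomes.

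The deposited values are MAS5 signals, a linear intensity for each probe set, and 12547 genes (27022 probe sets) passed a filter on low values. All 76 members passed it, with signals between 174.8 and 7218. Across tested probe sets the log2 values correlated at 0.977 between the KO arrays, at 0.979 between the WT arrays, and at 0.933 to 0.941 across genotypes. Of the Treg markers, Foxp3, the lineage transcription factor, fell (946.7 and 1101 in KO, 2177 and 2033 in WT), as did Ikzf2, while Il2ra, Ctla4 and Tnfrsf18 rose. Of the 8 T cell markers on the array 4 rose (Cd3d, Cd3e, Cd3g and Thy1), 1 fell (Cd5), and Cd4, Cd28 and Cd247 were not called, with Cd4 and Cd28 below WT on both KO arrays. Their signals summed to 88570 and 82480 in KO and to 64290 and 62420 in WT. Markers of other blood cells moved with the genotype: 11 of 13 mast cell and basophil markers rose, with summed signals of 48640 and 33720 in KO and 1008 and 1562 in WT. All 3 plasma cell markers, both CD8 T cell markers, both tested eosinophil markers, 4 of 7 monocyte and macrophage markers, 2 of 4 neutrophil markers and 1 of 3 NK cell markers on the array also rose, whereas no B cell or dendritic cell marker was called. The 4 B cell markers tested and the 3 dendritic cell markers tested lay in summed ranges that overlapped between genotypes (837.8 to 1265 in KO and 536.1 to 1242 in WT, and 363.9 to 375.9 in KO and 202.2 to 426.7 in WT, over all markers of each list on the array). Mitochondrial ribosomes are known to be present in all of these cell types, and the part of these cells in the results below was not tested. In such bulk samples a lower share of cells that express a gene and less of its RNA per cell cannot be told apart.

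Most mitochondrial ribosomal protein genes differed little between KO and WT cells. Called means an adjusted p under 0.05 in limma's moderated test, with Benjamini-Hochberg adjustment over all 27022 probe sets, and the log2 fold change is KO minus WT on log2(signal + 16). By this rule 8 of 76 members (10.5%) were called, against 20.3% of all genes tested. The 3 that rose, Mrps7, Mrpl20 and Mrpl52, made up 3.95% of the members, against 10.5% of all genes called higher. The 5 that fell, Mrps5, Mrpl48, Mrpl47, Mrpl23 and Mrps6, made up 6.58%, against 9.87% of all genes called lower. The other 68 members were not called, and at an unadjusted p under 0.05 in limma there were 14 higher and 11 lower members. Counts at an unadjusted p, here and below, have no share of all genes beside them. They therefore do not show whether a list differs from all genes. Both KO arrays lay above both WT arrays for 24 members (31.6%, against 29.8% of all genes), below them for 19 (25.0%, against 32.9%), and the groups overlapped for 33. The median log2 fold change of the members was 0.06 beside -0.03 over all genes, and the median of its absolute value was 0.18 beside 0.31 over all genes. Only Mrpl33 reached a 2-fold difference, 1.32% of the members, against 10.4% of all genes. With so few arrays the smallest two-sided p of an exact permutation test is 0.333, so the calls rest on the spread that limma shares across probe sets. Calls were also lost in each fit that left out 1 array, which leaves a single array in 1 genotype. The fold changes moved less. With 1 array left out the log2 fold change of Mrps5 lay between -0.64 and -0.54, and that of Mrps7 between 0.45 and 0.62. Such fits measure the spread on fewer arrays, so a lost call does not show that it rested on the array left out.

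**Figure D1:**
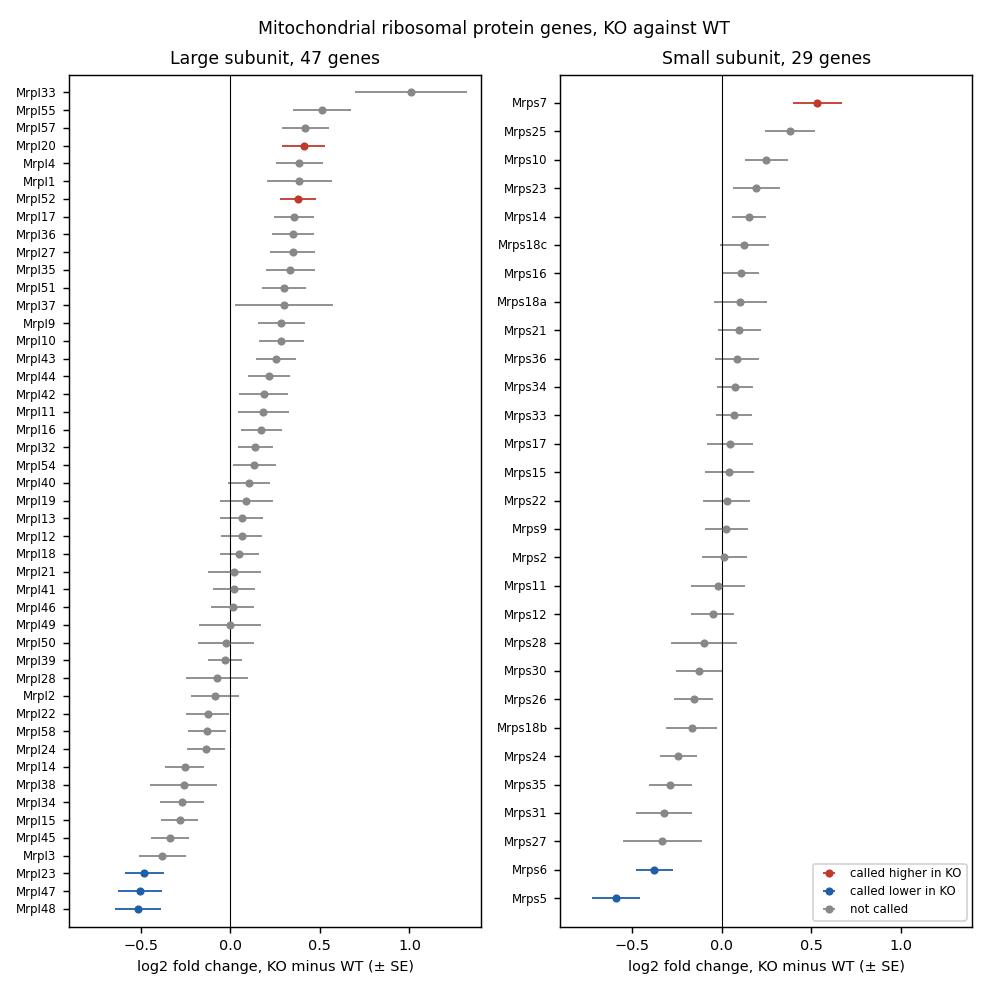
Log2 fold change (KO minus WT, horizontal axis, bars are ± SE from limma) of each of the 76 mitochondrial ribosomal protein genes, large-subunit symbols on the left and small-subunit symbols on the right, ordered by value. Red marks the 3 genes called higher in KO, blue the 5 called lower, and grey the 68 not called; 74 of 76 genes lie within a 1.5-fold difference.

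The members with large-subunit symbols and those with small-subunit symbols both held calls in each direction. Of the 47 large-subunit members 2 rose and 3 fell (10.6% called), with a median log2 fold change of 0.09. Of the 29 small-subunit members 1 rose and 2 fell (10.3% called), with a median of 0.03. The share called among all genes was 20.3%. Non-overlapping arrays were counted for 19 large-subunit members above (40.4%) and 11 below WT (23.4%). For small-subunit members the counts were 5 above (17.2%) and 8 below WT (27.6%). Over all genes 29.8% lay above and 32.9% below. The difference between the subunits was not tested. The split follows the symbols: Mrps18a and Mrps30 are known to sit in the large subunit, Mrps36 is known as a component of the 2-oxoglutarate dehydrogenase complex, and Mrpl58 is also known as the peptide-release protein Ict1.

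The start regions of the members were read for sequence features that the rule did not use. RefSeq windows of assembly GRCm38.p6, from 250 bases before to 50 bases after the annotated start, were found for 67 of 76 members, in 73 windows of 300 bases. The 5 shown were picked because they cover a member that fell without any of the marked letters (Mrps5), one that fell and one that rose with the same ETS letters (Mrpl48 and Mrpl52), the member with the largest difference, which has both Nrf1 and ETS letters (Mrpl33), and a ribosomal stalk gene with Nrf1 letters (Mrpl10). Capitals mark the Nrf1 letters GCGCATGC or the ETS letters CCGGAAGT, or their reverse complements GCATGCGC and ACTTCCGG.
Mrps5: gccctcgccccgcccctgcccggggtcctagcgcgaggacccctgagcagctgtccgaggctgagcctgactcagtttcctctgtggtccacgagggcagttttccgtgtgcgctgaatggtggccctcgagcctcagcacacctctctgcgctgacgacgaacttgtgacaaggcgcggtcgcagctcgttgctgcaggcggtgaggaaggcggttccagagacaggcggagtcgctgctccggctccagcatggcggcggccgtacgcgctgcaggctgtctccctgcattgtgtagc
Mrpl48: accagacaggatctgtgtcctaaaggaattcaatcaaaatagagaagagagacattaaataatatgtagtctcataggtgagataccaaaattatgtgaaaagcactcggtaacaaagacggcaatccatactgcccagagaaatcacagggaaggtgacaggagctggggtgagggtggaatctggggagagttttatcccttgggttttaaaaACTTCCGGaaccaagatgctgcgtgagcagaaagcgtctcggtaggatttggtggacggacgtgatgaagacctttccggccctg
Mrpl52: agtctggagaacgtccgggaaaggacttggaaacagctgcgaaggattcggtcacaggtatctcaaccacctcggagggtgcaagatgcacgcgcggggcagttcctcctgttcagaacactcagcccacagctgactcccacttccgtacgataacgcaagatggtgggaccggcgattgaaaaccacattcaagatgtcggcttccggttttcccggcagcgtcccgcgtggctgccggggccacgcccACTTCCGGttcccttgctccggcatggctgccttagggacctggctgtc
Mrpl33: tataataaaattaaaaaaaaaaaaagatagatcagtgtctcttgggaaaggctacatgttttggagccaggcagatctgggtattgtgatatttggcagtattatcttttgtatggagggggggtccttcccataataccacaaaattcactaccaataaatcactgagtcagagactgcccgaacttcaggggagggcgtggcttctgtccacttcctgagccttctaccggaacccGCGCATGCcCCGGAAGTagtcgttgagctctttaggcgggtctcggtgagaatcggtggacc
Mrpl10: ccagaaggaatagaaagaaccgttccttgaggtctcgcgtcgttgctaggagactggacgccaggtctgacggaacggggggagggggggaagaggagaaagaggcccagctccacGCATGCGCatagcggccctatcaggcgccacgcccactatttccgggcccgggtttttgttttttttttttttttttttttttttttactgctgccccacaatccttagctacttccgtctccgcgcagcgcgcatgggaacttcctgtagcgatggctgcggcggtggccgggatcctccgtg
The windows are, in the same order, chr2:127587176-127587475 on the plus strand, chr7:100583081-100583380 on the minus strand (1 of 4 annotated windows of Mrpl48), chr14:54426659-54426958, chr5:31613701-31614000 and chr11:97041332-97041631, the last 3 on the plus strand. In Mrpl33 the Nrf1 letters start at position 239 of the window and the ETS letters at position 248, without overlap, counted from the 5′ end. The ETS letters start at position 216 in Mrpl48 and 252 in Mrpl52, and the Nrf1 letters at position 117 in Mrpl10. The other annotated windows of Mrpl48 hold neither Nrf1 nor ETS letters, so only the start shown has them.

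Among the members that fell, the small-subunit gene Mrps5 had the largest change. Mrps5, the counterpart of the bacterial protein S5 near the messenger RNA entry, had signals of 795.8 and 853.4 in KO cells, against 1296 and 1201 in WT cells. Both KO arrays lay well below both WT arrays, with no overlap. The log2 fold change was -0.59 ± 0.13 (SE), a 1.5-fold lower level, with a limma adjusted p of 0.0188. Of its 3 other tested probe sets, one was also called lower, with signals of 104.2 and 160.6 in KO and 302.9 and 263.6 in WT (log2 fold change -1.03, SE 0.26, limma adjusted p = 0.0292). The remaining 2 were not called, at -0.22 and -0.47. The Mrps5 call was lost without KO replicate 1, WT replicate 1 or WT replicate 2.

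Another 3 large-subunit genes fell by a similar size. Mrpl48, a subunit of the central protuberance with no bacterial counterpart, had signals of 1281 and 1135 in KO, against 1826 and 1637 in WT. Its log2 fold change was -0.51 ± 0.13 (SE, limma adjusted p = 0.0295). A second bright probe set of Mrpl48 gave 1061 and 1362 in KO, against 1741 and 1487 in WT, and did not pass the test (log2 fold change -0.42, limma adjusted p = 0.109). On both of these probe sets the KO arrays lay below the WT arrays. Another tested probe set of Mrpl48 was dim and overlapped, with 47.19 and 59.32 in KO, against 47.44 and 37.16 in WT (log2 fold change 0.25). Mrpl47, the counterpart of bacterial L29 at the exit of the peptide tunnel, had 1064 and 1079 in KO, against 1587 and 1473 in WT (log2 fold change -0.51 ± 0.12, SE, limma adjusted p = 0.0255). Its KO arrays were nearly equal and well below both WT arrays. The other tested probe set of Mrpl47 was dim and overlapped (log2 fold change -0.28). Mrpl23, the counterpart of L23 beside the tunnel exit, had 3260 and 3048 in KO, against 4676 and 4147 in WT (log2 fold change -0.48 ± 0.11, SE, limma adjusted p = 0.0191). Mrpl23 kept its call in 3 of the 4 fits that left out 1 array and lost it without WT replicate 1. Mrpl48 lost its call without KO replicate 2, WT replicate 1 or WT replicate 2, and Mrpl47 lost it in each of the 4 fits.

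The fifth member that fell was Mrps6, the counterpart of S6 on the platform of the small subunit. It had signals of 3069 and 3378 in KO, against 4076 and 4285 in WT, with no overlap. Its log2 fold change was -0.38 ± 0.11 (SE, limma adjusted p = 0.0422), a 1.30-fold lower level. Its second probe set gave 1484 and 1622 in KO, against 1895 and 1772 in WT, and was not called (log2 fold change -0.24, limma adjusted p = 0.216). The Mrps6 call held only without KO replicate 2 among the fits that left out 1 array.

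Of the members that rose, Mrps7 changed most. Mrps7, the counterpart of S7, which organises the head of the small subunit, had signals of 1361 and 1208 in KO cells, against 917.6 and 845.2 in WT cells. Every KO array was above every WT array, and the log2 fold change was 0.53 ± 0.14 (SE), a 1.45-fold higher level with a limma adjusted p of 0.0299. Mrpl20, the counterpart of L20, an early-binding protein of the large subunit in bacteria, had 2459 and 2159 in KO, against 1760 and 1700 in WT. Its log2 fold change was 0.41 ± 0.12 (SE), and its limma adjusted p of 0.0481 lay just under the threshold. Mrpl52, a subunit without a bacterial counterpart, had 7218 and 6894 in KO, against 5782 and 5096 in WT (log2 fold change 0.38 ± 0.10, SE, limma adjusted p = 0.0372). Of the 3 other probe sets of Mrpl52, 2 were also bright: one was called higher (3465 and 3766 in KO, 2665 and 2523 in WT, log2 fold change 0.48, limma adjusted p = 0.0184), and one was not (log2 fold change 0.29, limma adjusted p = 0.0844). Among the fits that left out 1 array, these 3 members kept their calls only in the one without KO replicate 2.

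**Figure D2:**
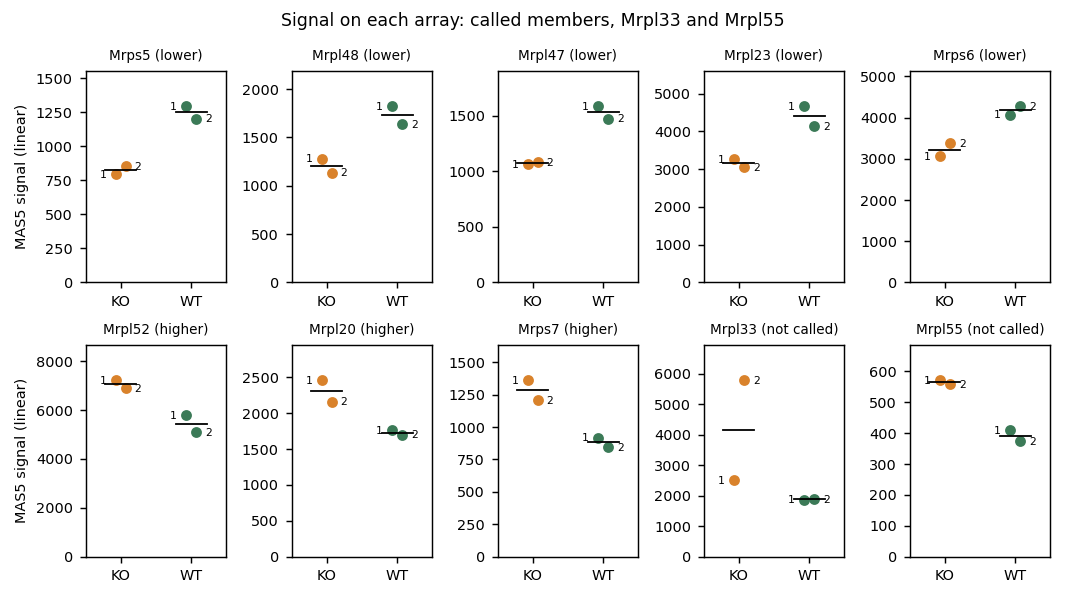
MAS5 signal (vertical axis, linear, from 0) on each of the 2 KO and 2 WT arrays for the 8 called members and for Mrpl33 and Mrpl55, which were not called; points are arrays with their replicate numbers and lines are group means. KO and WT points do not overlap in any panel, and Mrpl33 is the panel in which the KO arrays stand far apart, at 2502 and 5788.

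The largest difference of all belonged to a member that was not called. Mrpl33, the counterpart of bacterial L33, whose window above holds Nrf1 and ETS letters side by side, had signals of 2502 and 5788 in KO cells, against 1876 and 1895 in WT cells. KO replicate 2 stood far above the other 3 arrays, and the log2 fold change of 1.01 ± 0.31 (SE) had a limma adjusted p of 0.0594. The size rested on KO replicate 2: without it the log2 fold change was 0.41 and not called (limma adjusted p = 0.0707), and without KO replicate 1 it was 1.61. The second of these fits was called, but it has a single KO array, so its spread comes from the nearly equal WT arrays and leaves out the gap between the KO arrays. The other Mrpl33 probe set was dim and went the other way, with 35.77 and 17.45 in KO, against 82.0 and 48.87 in WT (log2 fold change -0.94, limma adjusted p = 0.193). Mrpl33 was one of only 2 members whose KO arrays differed by more than 1.5-fold, with Mrpl37 the other (598.1 and 324.2 in KO, against 379.4 and 332.6 in WT), and no member had WT arrays that far apart.

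Among the members that were not called, the next 4 by size of the difference all lay higher in KO. Mrpl55, a subunit without a bacterial counterpart, had 571.5 and 559.4 in KO, against 410.0 and 373.7 in WT (log2 fold change 0.51 ± 0.16, SE, limma adjusted p = 0.0645). Mrpl57, also particular to mitochondrial ribosomes, had 5042 and 4034 in KO, against 3549 and 3196 in WT (log2 fold change 0.42 ± 0.13, SE, limma adjusted p = 0.0594). Neither gene had overlapping groups. Mrpl4, the counterpart of L4, which lines the peptide tunnel, had 2299 and 1996 in KO, against 1745 and 1534 in WT (log2 fold change 0.39 ± 0.13, SE, limma adjusted p = 0.077). Mrpl1, the counterpart of L1, which forms a mobile stalk, had 476.7 and 412.7 in KO, against 357.1 and 316.2 in WT (limma adjusted p = 0.19), and its second probe set lay lower in KO, at 189.0 and 218.0, against 218.8 and 264.4 in WT.

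Another 5 large-subunit genes outside the called ones were read for their functions. Mrpl12, the counterpart of the L7/L12 stalk protein, which also binds the mitochondrial RNA polymerase, had 3700 and 3242 in KO, against 3491 and 3149 in WT, with overlapping groups (log2 fold change 0.06 ± 0.12, SE, limma adjusted p = 0.759). Mrpl10, which anchors that stalk, had 1609 and 1579 in KO, against 1396 and 1220 in WT (log2 fold change 0.29 ± 0.13, SE, limma adjusted p = 0.164). Mrpl11, at the stalk base where translational GTPases bind, had 1268 and 1536 in KO, against 1301 and 1156 in WT. These groups overlapped (log2 fold change 0.18, limma adjusted p = 0.425). A similarly bright probe set of Mrpl11 gave 1494 and 1451 in KO, against 1171 and 1124 in WT (log2 fold change 0.355, limma adjusted p = 0.0819). Its dimmer probe sets overlapped, at log2 fold changes of 0.10 and -0.04. The stalk genes were thus level or slightly higher in KO, none past the threshold. Mrpl45, which tethers the ribosome to the inner membrane at the tunnel exit, had 2532 and 2475 in KO, against 3035 and 3307 in WT (log2 fold change -0.34 ± 0.11, SE, limma adjusted p = 0.064). Mrpl44, which has a fold like that of RNase III, had 2296 and 2034 in KO, against 1859 and 1858 in WT (log2 fold change 0.22 ± 0.12, SE, limma adjusted p = 0.251). All 4 tested probe sets of Mrpl44 lay above 0.

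Mrpl3, the counterpart of L3 near the catalytic centre, is a case in which the choice of probe set decided the call. Its chosen probe set had 1424 and 1736 in KO, against 2053 and 2044 in WT (log2 fold change -0.38 ± 0.13, SE, limma adjusted p = 0.0854). A dimmer one had 840.3 and 751.5 in KO, against 1211 and 1067 in WT, and was called lower (log2 fold change -0.51, SE 0.14, limma adjusted p = 0.0427). On both, every KO array lay below every WT array. A further 3 small-subunit genes showed nearly level signals. Mrps12, the counterpart of the decoding protein S12, had 1568 and 1462 in KO, against 1618 and 1517 in WT. Mrps16, the counterpart of S16, an assembly protein in bacteria, had 5146 and 4596 in KO, against 4611 and 4411 in WT, and Mrps22, which has no bacterial counterpart, had 1223 and 1258 in KO, against 1299 and 1138 in WT. Their log2 fold changes were -0.05 ± 0.12, 0.11 ± 0.10 and 0.03 ± 0.13 (SE), in that order, each with overlapping groups and with limma adjusted p of 0.825, 0.521 and 0.911.

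The other 54 members are what was left once the called members, the largest uncalled differences and the subunits read for function had been named. That none of the 54 was called follows from this selection, which also narrowed their range. Their log2 fold changes lay between -0.33 and 0.38, with limma adjusted p of 0.063 or more. Both KO arrays lay above both WT arrays for 14 of the 54 and below for 12, and 28 overlapped. As counts of a selected remainder, these were not compared with the shares of all genes. A few groups of neighbours in the ribosome, chosen after the values were seen, are given as a description. Around the tunnel exit, where Mrpl23 and Mrpl47 fell, Mrpl24 had 4860 and 4374 in KO, against 5280 and 4866 in WT (log2 fold change -0.14), and Mrpl22 had 2493 and 2144 in KO, against 2591 and 2461 in WT (log2 fold change -0.13). Mrpl45, given above, lay lower too. Mrpl17 went the other way, with 3289 and 3074 in KO, against 2625 and 2343 in WT (log2 fold change 0.36, not called). So did Mrpl32, at 0.14. The exit neighbours thus moved in both directions. In the central protuberance, where Mrpl48 fell, the log2 fold change was -0.26 for Mrpl38, 0.01 for Mrpl46, 0.11 for Mrpl40 and 0.35 for Mrpl27. In the head of the small subunit, where Mrps7 rose, it was 0.03 for Mrps9, 0.25 for Mrps10, 0.15 for Mrps14 and 0.07 for Mrps33. Other head subunits went the other way, at -0.24 for Mrps24, -0.32 for Mrps31 and -0.285 for Mrps35. Dap3, also in the head and described below, was called lower. The neighbours of Mrps7 thus moved in both directions. The 3 paralogs of bacterial S18 had values of 0.11 for Mrps18a, -0.17 for Mrps18b and 0.13 for Mrps18c.

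A second look at the same genes came from their further probe sets. In all 156 probe sets name a member alone, 144 of them passed the filter, and 13 of the 144 were called, 4 higher and 9 lower, against 17.1% of all tested probe sets. Of 39 members with more than 1 tested probe set, 20 had all of them on the same side of 0, and 0 had calls in opposite directions. The 68 probe sets not chosen were dimmer, as the rule of choice makes them, with a median mean signal of 215.2 beside 1987 for the chosen ones. Their median log2 fold change was -0.15, beside -0.08 over all tested probe sets, with 23 above and 45 below 0. The 3 largest decreases were on dim probe sets, of Mrps15, Mrpl38 and Mrps5. The one for Mrps15 had 18.9 and 6.57 in KO, against 76.62 and 115.4 in WT, and was called lower (log2 fold change -1.98, limma adjusted p = 0.0191), while the bright one overlapped, at 3451 and 2984 in KO and 3485 and 2782 in WT. The one for Mrpl38 had 70.6 and 31.67 in KO, against 126.2 and 185.3 in WT (log2 fold change -1.40, limma adjusted p = 0.0396), and its bright one also lay below WT but was not called (log2 fold change -0.26). For Mrps5 both the dim and the bright one were called lower. Mrps15 and Mrpl38 were named after their values were seen. Whether the dim probe sets read another transcript form was not tested.

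**Figure D3:**
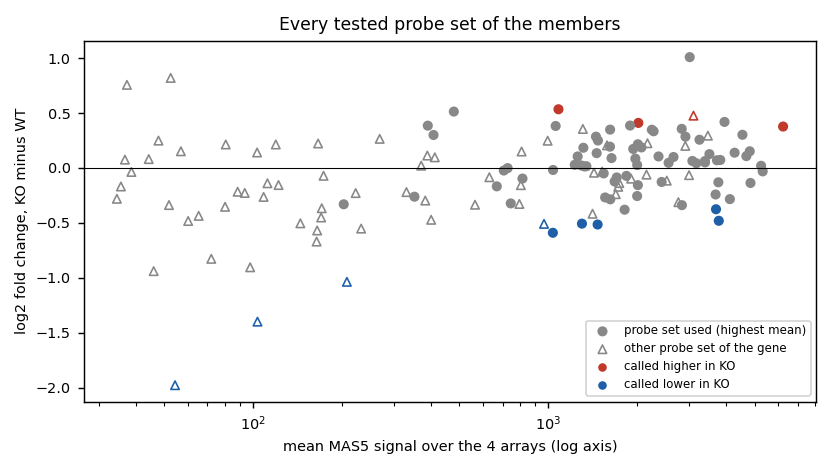
Log2 fold change (KO minus WT, vertical axis) against mean MAS5 signal over the 4 arrays (horizontal log axis) for the 144 tested probe sets of the members; filled circles are the probe sets used for each gene, open triangles the other 68, red called higher and blue called lower. The filled circles lie between -0.59 and 1.01, and the triangles, which are mostly dimmer, spread from -1.98 to 0.82.

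Another 2 genes of the family are measured only by probe sets that name a second gene, so they are not among the 76. The brighter probe set for Mrpl30 and Gm6238 had 12760 and 11680 in KO, against 16450 and 15930 in WT, and was called lower (log2 fold change -0.41, SE 0.09, limma adjusted p = 0.016). The one for Mrpl53 and Ccdc142 had 2011 and 1899 in KO, against 1610 and 1779 in WT, and was not called (log2 fold change 0.21, limma adjusted p = 0.278). Neither signal can be assigned to one of its genes.

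Among mitochondrial ribosome subunits listed under other names, 1 of 5 tested genes was called (20.0%, against 20.3% of all genes). Dap3, a GTP-binding protein of the small subunit, fell, with 3032 and 3027 in KO, against 4683 and 4412 in WT (log2 fold change -0.58 ± 0.10, SE, limma adjusted p = 0.00547). Its KO arrays were nearly equal and lay well below both WT arrays. Ptcd3, Chchd1 and Gadd45gip1 were not called and had overlapping groups, and Mrpl58, the fifth of the 5 tested genes on this list and also a member, was not called. The genes for ribosome assembly and ribosomal RNA modification had a median log2 fold change of -0.11. Of 27 tested, 0 rose and 3 fell (11.1%, against 9.87% of all genes called lower). They were Dhx30, an RNA helicase of mitochondrial RNA granules (2156 and 2241 in KO, 3067 and 3054 in WT, log2 fold change -0.48, limma adjusted p = 0.0171), Mterf3, a factor of the mTERF family (log2 fold change -0.43, limma adjusted p = 0.0346), and Mrm1, a ribosomal RNA methyltransferase (log2 fold change -0.61, limma adjusted p = 0.0371). In limma's fit 1 of these genes was higher and 5 were lower at an unadjusted p under 0.05.

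Few factors that work with the ribosome during translation were called. Of 14 tested translation factors only Mtfmt was called (7.14%, against 20.3% of all genes), and it rose. It encodes the enzyme that formylates the initiator transfer RNA and had signals of 687.2 and 908.6 in KO, against 414.7 and 417.7 in WT (log2 fold change 0.90 ± 0.18, SE, limma adjusted p = 0.0107). Tufm, the elongation factor Tu, had 1653 and 1778 in KO, against 1813 and 1863 in WT, and was not called (log2 fold change -0.10, limma adjusted p = 0.608). None of 18 mitochondrial aminoacyl-tRNA synthetase genes was called by limma, against 20.3% of all genes. In the same fit 0 were higher and 3 lower at an unadjusted p under 0.05, with a median of -0.12. Their log2 fold changes lay between -1.17 and 0.32. Of the 18 genes 1 reached a 2-fold difference (5.56%, against 10.4% of all genes). Of 25 import genes 1 rose and 1 fell (8.0% called, against 20.3% of all genes). The receptor Tomm70a rose (3038 and 3273 in KO, 2033 and 2245 in WT, limma adjusted p = 0.0115). The chaperonin partner Hspe1 fell (9212 and 8029 in KO, 12730 and 12840 in WT, limma adjusted p = 0.00536).

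Of 20 tested genes that maintain and transcribe mitochondrial DNA, 2 rose and 2 fell, 10.0% each way, near the shares of all genes (10.5% higher and 9.87% lower). Tfam, which packages the mitochondrial genome and starts its transcription, fell, with 1857 and 1920 in KO, against 2828 and 2646 in WT (log2 fold change -0.53 ± 0.11, SE, limma adjusted p = 0.0128). Polg2, the accessory subunit of the mitochondrial DNA polymerase, also fell (log2 fold change -0.55, limma adjusted p = 0.0304). Slirp, which stabilises mitochondrial messenger RNAs, rose (4502 and 4467 in KO, 3294 and 3197 in WT, limma adjusted p = 0.0139), as did Hsd17b10, a subunit of mitochondrial RNase P (3651 and 4219 in KO, 2899 and 2734 in WT, limma adjusted p = 0.0232). Polrmt, the mitochondrial RNA polymerase, had 841.6 and 1002 in KO, against 1242 and 1110 in WT, and was not called (limma adjusted p = 0.143).

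Transcriptional regulators of nuclear genes for mitochondria were the list with the lowest median among those compared, -0.33 over 9 tested genes. Of these 0 rose and 3 fell (1 higher and 4 lower at an unadjusted p under 0.05 in limma). Those that fell made up 33.3% of this short list, against 9.87% of all genes called lower. Ppargc1b, a coactivator of such genes, fell the most, with 252.6 and 283.6 in KO, against 655.4 and 590.4 in WT (log2 fold change -1.17 ± 0.18, SE, limma adjusted p = 0.00286). Gabpb1, the partner of the ETS factor Gabpa, and Sp1 fell with limma adjusted p of 0.0494 each, just under the threshold, at log2 fold changes of -0.51 and -0.33. Nrf1, which binds promoters of many respiratory genes, had 405.9 and 455.5 in KO, against 549.3 and 734.3 in WT, and was not called (log2 fold change -0.55 ± 0.19, SE, limma adjusted p = 0.0833). Gabpa had overlapping groups (2185 and 1667 in KO, 1870 and 2285 in WT). Myc, a driver of ribosome production, had 8015 and 7527 in KO, against 6860 and 6094 in WT (log2 fold change 0.26, limma adjusted p = 0.111).

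Cytosolic ribosomal protein genes and respiratory subunits were set beside the members. Of 41 cytosolic ribosomal protein genes 0 rose and 6 fell (14.6%, against 9.87% of all genes called lower). A negative log2 fold change was found for 39 of 41, and the median was -0.17. After quantile normalization 26 of the 41 were negative and the median was -0.04, and after centring each array on its median 37 were negative and the median was -0.13. The 4 with the smallest p were Rpl12 (458.0 and 526.6 in KO, 1098 and 1090 in WT), Rps15, Rps19 and Rps6. The members, by comparison, had 47 positive and 29 negative values, 48 and 28 after quantile normalization and 51 and 25 after centring. Of all 12547 genes tested 5966 were positive and 6581 negative without these changes of scaling. Their median of 0.06 did not keep its sign under other choices: it was -0.05 with the probe set of median rank per gene, -0.03 with the mean over all tested probe sets, and -0.01 without KO replicate 1 or without WT replicate 2. Of 77 oxidative phosphorylation subunits 3 rose and 4 fell (9.09% called, against 20.3% of all genes). Their median of -0.03 became -0.06 after quantile normalization and 0.01 after centring. Those with the smallest p were Ndufs5, a subunit of complex I (4973 and 5179 in KO, 2598 and 2495 in WT, log2 fold change 0.99), and Cox7a2l, a factor of respiratory supercomplexes (12210 and 12490 in KO, 20310 and 20370 in WT, log2 fold change -0.72). The differences between these lists and the members were not tested.

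**Figure D4:**
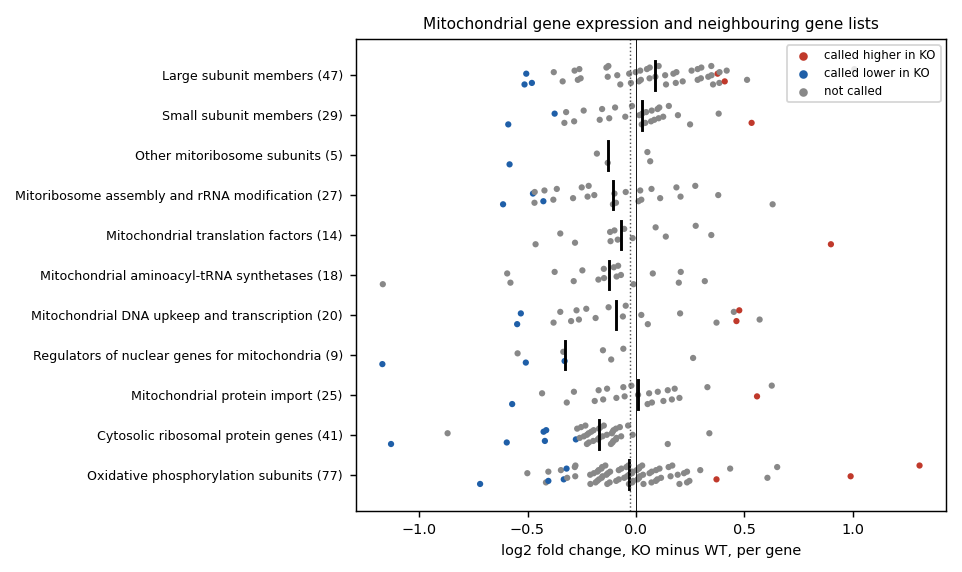
Log2 fold change (KO minus WT, horizontal axis) of each tested gene, 1 point per gene, for the members by subunit and for the compared lists, with the number of genes in parentheses; red is called higher in KO, blue called lower, grey not called, thick bars are list medians, the dotted line is the median of all genes tested (-0.03) and the solid line marks 0. Medians run from -0.33 for the regulators to 0.09 for the large-subunit members.

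The letters marked in the windows of Mrpl48, Mrpl52, Mrpl33 and Mrpl10, and those of Yy1, belong to 3 factors known for promoters of nuclear mitochondrial genes, and were counted on both strands in all windows. Nrf1 letters were in 11.0% of member windows and 3.52% of the 21263 windows of all protein-coding genes, and ETS letters were in 16.4% and 5.15%. The Yy1 letters AAGATGGCG were in 11.0% and 1.83%. At least 1 of the 3 was in 26 of 73 member windows (35.6%), against 9.88% of coding windows. The E-box CACGTG, the site of Myc and its relatives, was in 9.59% of member windows and 7.84% of coding windows, and the letters CCAAT in 39.7% and 38.2%. The 7 member windows with the E-box belong to only 5 members, as Mrpl2 has several of them. None of these letters contains another. The median GC content was 58.7% in member windows and 56.3% in coding windows, so base composition also differs. A match is a description of letters and no evidence of binding. The 8 members with Nrf1 letters had a median log2 fold change of 0.21, and the 59 without them one of 0.05. Of 12 members with ETS letters 1 rose and 1 fell, with a median of 0.09 beside 0.05 for the other 55. The 8 members with Yy1 letters had a median of 0.15 beside 0.05 for the other 59. The 5 members with the E-box had a median of 0.30 beside 0.05 for the other 62, and the 26 with CCAAT letters one of 0.05 beside 0.06 for the other 41. No test was made of these splits.

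**Figure D5:**
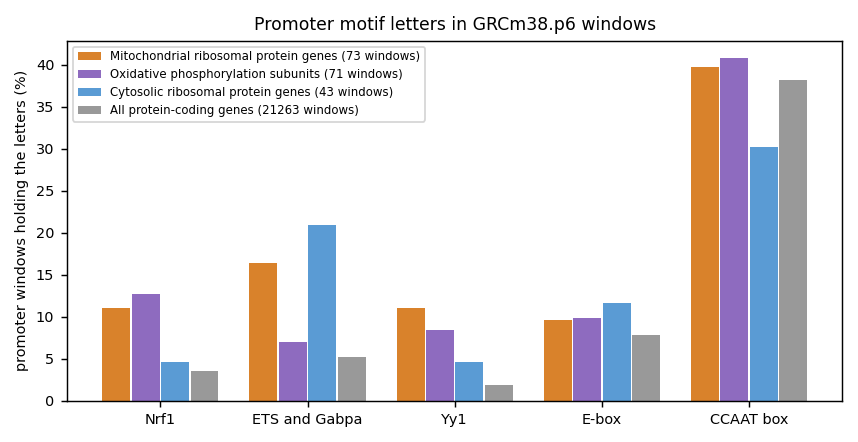
Share of promoter windows (percent, vertical axis from 0) that hold each set of letters on either strand, for mitochondrial ribosomal protein genes, oxidative phosphorylation subunits, cytosolic ribosomal protein genes and all protein-coding genes, with the number of windows in the legend. The members' bars exceed those of all coding genes for Nrf1 (11.0% and 3.52%), ETS (16.4% and 5.15%) and Yy1 (11.0% and 1.83%) and are close to them for the E-box and CCAAT letters.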

How the data were processed

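Total RNA was labelled with biotin and hybridised to 4 single-colour arrays, 1 per sample, per the labels' protocols. The deposited values are linear intensity values, 1 per probe set and array, made with MAS5, per the submitters' processing notes; its version and settings are not given in the sources used here. After the top and bottom 2% of probe sets were set aside, all 4 arrays had the same mean, 500.0, so any difference in total RNA per cell had been removed, and array medians lay between 56.5 and 62.6, with no quantile normalization. The scanner files were not used here. MAS5 signals vary strongly where they are dim, and the number of arrays limits the precision.

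From 45101 probe sets 64 controls were left out, log2(signal + 16) was taken, and the 40% with the lowest mean were left out. Differences of KO from WT were fitted with limma 3.58.1 in R 4.3.3 (lmFit, eBayes with an intensity trend) for all remaining probe sets together, with 2 residual and 6.41 prior degrees of freedom. Over the whole table the fold changes had a median of -0.08 on the log2 scale, which was not subtracted. A fold change on this scale understates changes of dim genes. Genes were named from the platform annotation, which gives a single gene for 34958 probe sets, more than 1 for 932 and no gene for 9211, and all 76 members were found in the RefSeq table of GRCm38.p6 under the same symbol. Each motif was searched as its exact letters on both strands. The fit was also run on simulated data with normal noise and variances drawn from its own fitted prior. That run shares the assumptions of the fit, so it does not check how well they hold for these arrays.

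The members, lists and tests were chosen with earlier results of these data known. The rule for named genes took every called member, the 5 largest differences among the others, 10 landmark subunits, up to 4 called genes of each list by p, and Myc, Tfam, Nrf1, Gabpa, Polrmt, Tufm and Dap3; any other gene was chosen with its values in view. The alternatives were another pseudocount, filter, scaling or variance prior, the array number as a block, another probe set per gene, no cross-hybridising probe sets, and each array left out in turn.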

Additional observations from a re-analysis of the deposited data

How the results depend on the processing

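With 2 arrays per group the calls are fragile. Over 14 alternatives no called member changed sign, but most alternatives could hardly change it. The KO and WT arrays of each called member do not overlap, so leaving out an array cannot reverse its sign. Another filter, variance prior or block leaves the fold change of a probe set nearly as it was. Of all probe sets 4608 were called, against 1183 without the intensity trend and 2786 to 4387 with 1 array left out. Against 3 members called higher there were 1 without the filter on low signals (more probe sets tested), 0 without the trend, and 0 to 5 with 1 array left out. Against 5 called lower there were 1 after centring each array on its median, 0 without the trend, 2 with the probe set of median rank per gene (73 genes), and 0 to 4 with 1 array left out. Without the trend limma gave 2 higher and 4 lower members at an unadjusted p under 0.05. Centring moved the all-probe-set median by 0.04 on the log2 scale; the cause of the other changes was not tested. Deviations of KO and WT arrays with the same number correlated at 0.0103, so the number was not taken to pair samples. With it as a replicate block, 7 members were called higher and 5 lower, all 8 original ones among them, with 5382 probe sets in all. The members' median of 0.057 was -0.049 with the probe set of median rank, -0.031 with the mean over all tested probe sets of each gene, and -0.012 to 0.13 with 1 array left out, below 0 without KO replicate 1 or WT replicate 2. Mrpl33 was called after centring, with the block, without cross-hybridising probe sets and without KO replicate 1, which leaves a single KO array; without KO replicate 2 it was 0.41 and not called. Mrps5 and Mrps7 kept their calls under 10 of 14 alternatives, and Mrpl23 under 11. Signals near background, as for the dim second probe sets, limit what can be read from them.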
